A study of Mus musculus with 4 samples.

Results

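The 29 genes described here make cholesterol or move and store it in the cell, and they were picked by name, by their role, from the 39179 genes measured in mouse liver tumors. Of these genes, 19 encode enzymes of cholesterol synthesis, 3 belong to the isoprenoid branch that leaves the same pathway, and 7 release, carry or esterify cholesterol. Every symbol matched exactly 1 gene, and each of the 29 had at least 1 CPM (reads per 1000000 counted reads) in at least 2 libraries, the condition for being tested.

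Cholesterol is built from acetyl-CoA through mevalonate and isoprene units to squalene, which is closed into lanosterol and then trimmed to cholesterol by a series of enzymes of the endoplasmic reticulum. Farnesyl and geranylgeranyl diphosphate, made on the way, also supply protein prenylation, dolichol and ubiquinone. When sterols in the endoplasmic reticulum are low, the transcription factor SREBP2 is released and induces most of these genes together with the nearby-binding factor NF-Y. The liver is a main site of this synthesis, and cholesterol taken up in lipoproteins enters the cell through lysosomes.

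Tumors were raised in wild-type C57BL/6 mice by hydrodynamic injection, a rapid tail-vein infusion that carries DNA into hepatocytes, of transposons for Myc and NrasG12V, a constantly active Nras. Animals then received carrier or sorafenib, an inhibitor of RAF and of several receptor kinases, every second day for 3 weeks. The carrier group holds 2 libraries and the sorafenib group 2. Both groups carry the same Myc/NrasG12V genotype label, and no library is labeled as normal liver. How much of each sample was tumor tissue was not tested. The labels name no age, no promoter of the transposons and no pooling, and nothing in them says that libraries came from separate mice, so p-values reflect no more than how these libraries vary, and that variation may be technical.

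Depth ran from 4067427 to 5932939 reads a library. Sorafenib replicate 2 stood apart from the other libraries. Across tested genes, which are not independent replicates, log2(CPM + 1) correlated at 0.978 between the carrier libraries, at 0.961 between sorafenib replicate 1 and either carrier library, and at 0.878 and 0.889 between sorafenib replicate 2 and the carrier libraries. The oncofetal transcript H19 read 19530 and 19390 CPM with carrier and 7796 and 39.8 CPM with sorafenib, and Igf2, Afp and Gpc3 were likewise lowest in sorafenib replicate 2, at 32.6, 9.53 and 2.10 CPM. Of all tested genes, 17.5% lay above and 41.3% below both carrier libraries in both sorafenib libraries. Of 10 oncofetal and progenitor markers, 7 were below both carrier libraries in both sorafenib libraries, and their summed level was 33780 to 38700 CPM in carrier and 190 to 15740 CPM in sorafenib tumors. Igf2bp3 was the marker at 0, in sorafenib replicate 2. Hepatocyte markers were abundant in all libraries, with a summed level of 127900 to 141200 CPM in carrier and 111100 to 119200 CPM in sorafenib tumors. Of these 10 markers, 6 lay above both carrier libraries and 3 (Alb, Apoa1 and Serpina1a) below both. All 12 macrophage markers lay below both, with sums of 471 to 518 CPM against 104 to 246 CPM, and none was at 0. The 8 endothelial markers summed to 184 to 218 CPM in carrier and 58.7 to 149 CPM in sorafenib tumors, and the 8 stellate and fibroblast markers to 353 to 547 CPM and 191 to 230 CPM, with 6 of 8 below both carrier libraries in each list. In bulk tissue, fewer cells of a type and less RNA per cell cannot be told apart, and the part of these shifts in the results on sterol genes was not tested.

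In sorafenib tumors the sterol genes lay on both sides of their carrier levels. Of the 9 genes from lanosterol to cholesterol, 6 lay above both carrier libraries (66.7%, against 17.5% of all tested genes). Among these 6, Hsd17b7, Nsdhl and Msmo1 did so only narrowly in sorafenib replicate 1. Cyp51 and Lbr lay below both, and Dhcr7, the last reductase, overlapped with a lower mean. Several genes that act between mevalonate and lanosterol, the dolichol enzymes and the cholesterol esterifying genes were also at lower levels. Lying below both carrier libraries was common, at 41.3% of all tested genes. Ebp, which shifts a double bond in the sterol ring, was at 158 and 133 CPM with carrier and 232 and 340 CPM with sorafenib. Soat1, an enzyme that esterifies cholesterol, was at 5.22 and 5.47 CPM against 1.97 and 1.33 CPM. Both genes separated the groups without overlap.

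None of these differences passed the test across all genes. limma's moderated test on log2(CPM + 1), with Benjamini-Hochberg adjustment over 13149 genes and a threshold of 0.05, called 0 of the 29 genes and 0.0% of all genes, and adjusted p ran from 0.24 to 0.956 over the 29. At an unadjusted p below 0.05, 2 of the 29 genes were higher (6.9%, against 6.36% of all tested genes) and 2 lower (6.9%, against 12.9%). edgeR's quasi-likelihood test on the recovered reads also called 0 of them, with 4 at an unadjusted p below 0.05, while DESeq2 called 1, Ebp, as higher (DESeq2 adjusted p = 0.0273), in a fit that called 3.42% of all genes higher and 0.365% lower. Values below are therefore given as levels in each library, always replicate 1 and then 2, and a log2 difference subtracts the carrier from the sorafenib mean of log2(CPM + 1), a scale that understates how far low genes differ.

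For 9 of the 29 genes, each sorafenib library exceeded each carrier library (31.0%, against 17.5% of all tested genes) and for 14 each was lower (48.3%, against 41.3%). With TMM factors, which scale the libraries on the bulk of the genes, 11 lay above (37.9%, against 27.2%) and 11 below (37.9%, against 29.2%). The median log2 difference of the 29 genes was -0.18, and that of all tested genes -0.26. TMM factors moved the first to 0.07 and the second to -0.04, so a value near zero has no fixed sign. Cyp51, Fdft1, Pmvk and Ggps1 were below zero on CPM and above zero with TMM and RLE factors, and the other 25 genes kept their sign under TMM, RLE and upper-quartile factors.

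**Figure D1:**
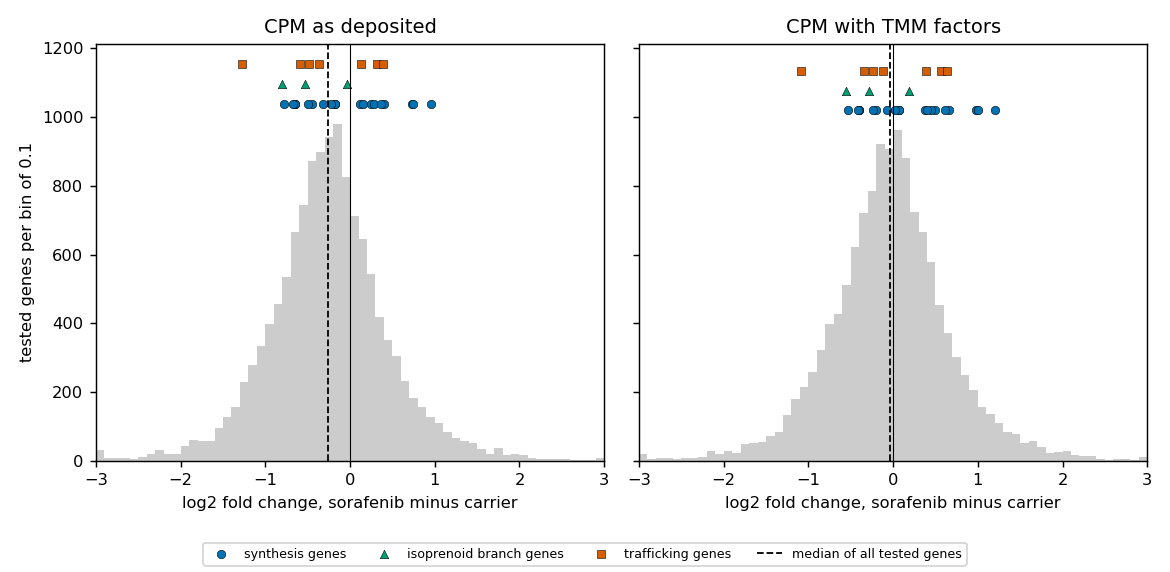
Grey bars count all tested genes in bins of 0.1 of the log2 difference (values beyond the axis are placed in the end bins), on deposited CPM at left and with TMM factors at right, and points mark the 29 sterol genes at arbitrary heights. Synthesis genes spread on both sides of the median of all tested genes, which is -0.26 on CPM and -0.04 with TMM factors.

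Sorafenib replicate 2 differed from the carrier mean by more than sorafenib replicate 1 did for 27 of the 29 genes (93.1%, against 76.9% of all tested genes). The exceptions were Idi1 and Ggps1. Both sorafenib libraries differed from the carrier mean in the same direction for 27 genes too (93.1%, against 76.5% of all tested genes). Ggps1 and Stard4 did not. Both differences subtract the same carrier mean, which favors a shared sign. Without sorafenib replicate 1, limma called 6 of the 29 higher (20.7%, against 9.34% of all genes) and 10 lower (34.5%, against 29.8%), with the lone sorafenib library assumed to vary like the carrier pair. Without sorafenib replicate 2 it called none of the 29 (smallest limma adjusted p = 0.104), in a fit that called 1.76% of all genes higher and 1.27% lower.

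**Figure D2:**
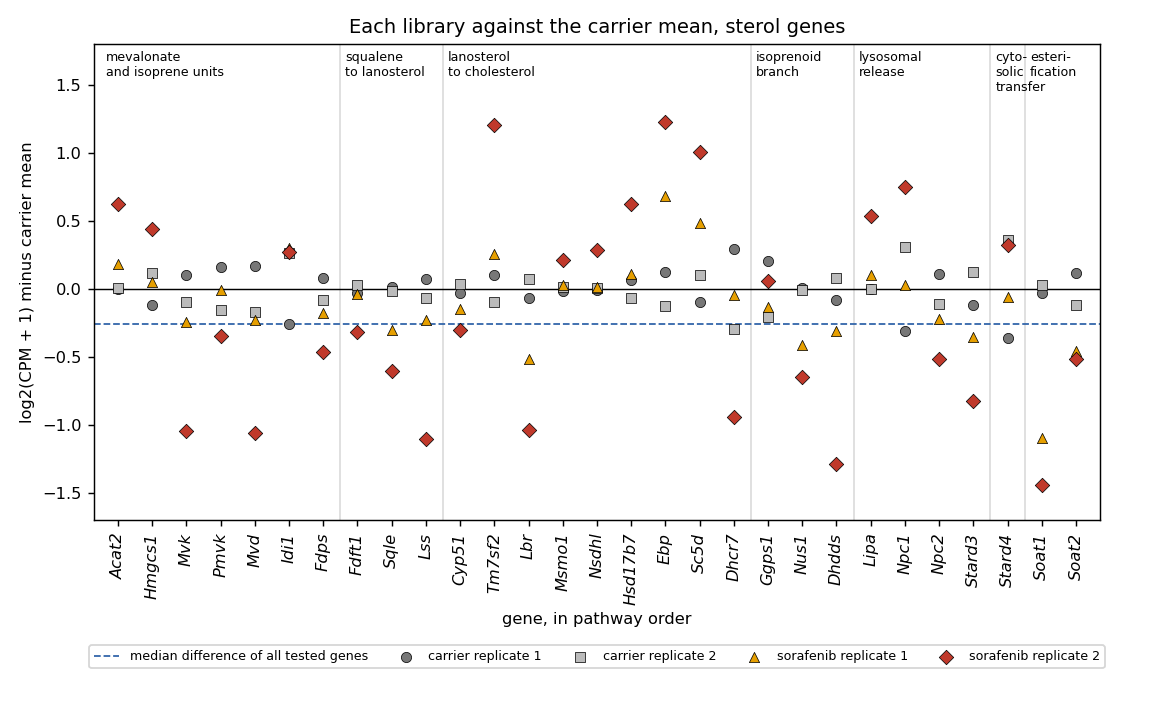
Each library's log2(CPM + 1) minus the mean of the carrier libraries (y axis) is drawn for the 29 genes in pathway order (x axis), with the median difference of all tested genes as a dashed line. Sorafenib replicate 2 lies farther from zero than sorafenib replicate 1 for 27 genes, above it for Tm7sf2, Ebp and Sc5d and below it for Mvk, Mvd, Lss, Lbr, Dhdds and Soat1.

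Levels of different genes were compared per kb of merged exons. In the carrier tumors Hmgcs1, which makes HMG-CoA for the pathway, had the highest level, 113 ± 13.2 CPM per kb (SD, n = 2), followed by the late enzymes Sc5d at 76.9 ± 7.37 and Ebp at 62.9 ± 7.75 CPM per kb. The lowest were Idi1 at 0.413 ± 0.177, Soat1 at 0.546 ± 0.0177 and Ggps1 at 1.76 ± 0.394 CPM per kb. Idi1 rested there on 6 and 10 reads, and exons of Ggps1 overlap those of Arid4b on the other strand. In the sorafenib tumors the same 3 genes led, and their levels of 135 ± 25.7 for Hmgcs1, 131 ± 33.5 for Sc5d and 124 ± 32.8 CPM per kb for Ebp lay within their spread. Soat1 was then the lowest, at 0.169 ± 0.0457 CPM per kb.

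**Figure D3:**
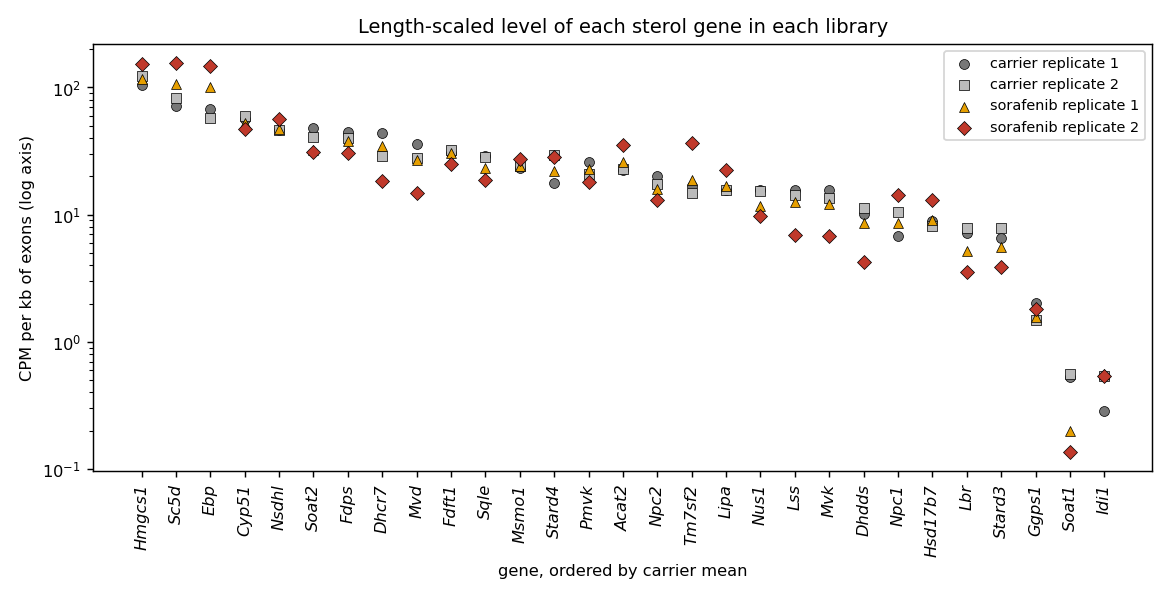
CPM per kb of exons (log axis) is drawn in each of the 4 libraries for the 29 genes, ordered by the carrier mean. Hmgcs1 and Sc5d stand at the top in every library, and Ggps1, Soat1 and Idi1 at the bottom.

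The promoters of these genes share a short sequence. RefSeq promoters (build GRCm38.p6) were found for 23 of the 29 genes, and the 250 bases before the transcript start were searched on both strands for CCAAT, the box bound by NF-Y, for TCACNCCAC, a form of the sterol regulatory element bound by SREBP2, and for CACGTG, the E-box bound by MYC and other factors. The letters CCAAT stood in 20 of the 23 promoters, against 35.5% of 17716 mouse promoters searched the same way. In all 20, the box nearest to the start lay 6 to 62 bases before it, with a median of 27.5 bases, and 13 promoters held at least 2 boxes. CCAAT was in 8 of 9 promoters of genes above both carrier libraries and in 10 of 10 of those below. The sterol element letters were found in 2 of the 23 promoters, Hmgcs1 and Stard3, against 1.03% of all promoters, and the E-box in 3, Hsd17b7, Sc5d and Dhdds, against 6.75%. These matches are letters in a window and not sites shown to be bound. Acat2, Pmvk and Dhcr7 held none of the 3 motifs.

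**Figure D4:**
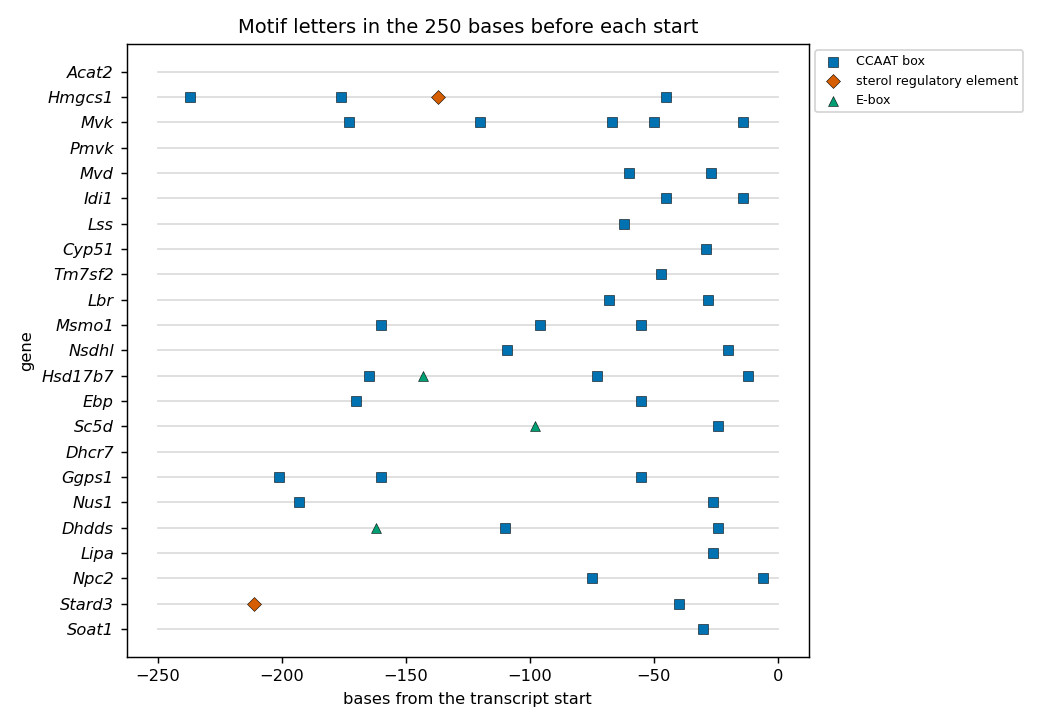
For each of the 23 genes with a RefSeq promoter (y axis), symbols mark where a motif begins in the 250 bases before the transcript start (x axis, in bases). In each promoter with CCAAT boxes the nearest lies within 62 bases of the start, and further boxes lie as far as 237 bases before it. The sterol element letters appear in Hmgcs1 and Stard3.

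The 100 bases before the start are shown for the 3 genes with the largest positive and the 3 with the largest negative log2 difference among those whose groups do not overlap and that have a RefSeq promoter, so that the position of the box can be compared between them. All run 5′ to 3′ on the gene's own strand and end next to the first transcribed base, and capitals mark CCAAT on either strand (ATTGG on the other) and the E-box. The first 3 are higher and the last 3 lower in the sorafenib libraries.
Ebp, chrX:8193513-8193612, minus strand: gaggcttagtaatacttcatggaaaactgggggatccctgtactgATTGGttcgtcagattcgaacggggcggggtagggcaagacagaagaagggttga
Sc5d, chr9:42264301-42264400, minus strand: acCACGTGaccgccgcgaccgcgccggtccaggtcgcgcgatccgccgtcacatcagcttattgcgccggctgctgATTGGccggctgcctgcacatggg
Tm7sf2, chr19:6067851-6067950, minus strand: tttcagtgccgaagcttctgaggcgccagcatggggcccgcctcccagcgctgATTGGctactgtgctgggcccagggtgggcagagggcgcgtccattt
Lbr, chr1:181842402-181842501, minus strand: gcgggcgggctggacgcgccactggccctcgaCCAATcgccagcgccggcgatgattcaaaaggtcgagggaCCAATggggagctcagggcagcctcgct
Dhdds, chr4:134000883-134000982, minus strand: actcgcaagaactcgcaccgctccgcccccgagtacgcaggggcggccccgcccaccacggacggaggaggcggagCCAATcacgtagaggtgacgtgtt
Soat1, chr1:156474329-156474428, minus strand: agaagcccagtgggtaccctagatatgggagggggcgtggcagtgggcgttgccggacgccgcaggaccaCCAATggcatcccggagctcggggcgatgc

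Hmgcs1 is shown over 250 bases because it was the 1 synthesis gene with the sterol element letters among those with a RefSeq promoter (Fdps, Fdft1 and Sqle were not searched), 137 bases before the start, together with 3 CCAAT boxes. Capitals mark all 4.
Hmgcs1, chr13:119690101-119690350, plus strand: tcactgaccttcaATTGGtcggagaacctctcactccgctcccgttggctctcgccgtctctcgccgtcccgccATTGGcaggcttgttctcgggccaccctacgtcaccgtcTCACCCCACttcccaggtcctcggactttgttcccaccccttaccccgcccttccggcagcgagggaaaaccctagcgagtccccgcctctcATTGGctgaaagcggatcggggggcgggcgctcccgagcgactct

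Of the 7 genes from acetyl-CoA to farnesyl diphosphate, 2 lay above both carrier libraries (28.6%, against 17.5% of all tested genes). Another 3 lay below both (42.9%, near the 41.3% of all tested genes) and 2 overlapped. The 2 above were Acat2 and Idi1. Idi1, also counted among the 9 of the 29 that lay above, rested on 10 reads or fewer in every library. Acat2, the thiolase that joins acetyl-CoA units in the cytosol, was at 57.5 and 57.7 CPM with carrier and 65.6 and 89.2 CPM with sorafenib. It has a close copy on the same chromosome, Acat3, so its reads may be shared and its value is uncertain. Hmgcs1 (ENSMUSG00000093930, chr13:119690379-119708260 on GRCm38), whose promoter is shown above, was at 477 and 563 CPM against 535 and 702 CPM. Its groups overlapped on CPM and separated upward with TMM factors.

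Mvk, which phosphorylates mevalonate, was at 41.8 and 36.2 CPM with carrier and 32.7 and 18.3 CPM with sorafenib. Mvd, which makes isopentenyl diphosphate by decarboxylation, was at 66.2 and 52.3 CPM against 49.9 and 27.6 CPM. Fdps, the synthase of farnesyl diphosphate, was at 189 and 169 CPM against 158 and 129 CPM. All 3 lay below both carrier libraries, by log2 differences of -0.65 (SE 0.335), -0.65 (SE 0.336) and -0.32 (SE 0.217), and the groups of Mvd overlapped with TMM and RLE factors. Those of Fdps overlapped with RLE factors, and its log2 difference was then -0.05, against -0.07 with TMM factors. Between them in the pathway, Pmvk, the second kinase, was at 44.3 and 35.5 CPM against 39.3 and 30.9 CPM, and the groups overlapped. Idi1, the isomerase of isopentenyl diphosphate, rested on 6, 10, 8 and 10 reads (carrier, then sorafenib), and at 1.01, 1.89, 1.97 and 1.91 CPM no difference was detectable at this depth.

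The 3 genes from farnesyl diphosphate to lanosterol all lay below both carrier libraries, as did 41.3% of all tested genes. Lss, which closes the ring to lanosterol, was at 169 and 153 CPM with carrier and 137 and 74.1 CPM with sorafenib (log2 difference -0.67, SE 0.319). Sqle, which oxidises squalene in a rate-setting step, was at 161 and 158 CPM against 129 and 105 CPM. Fdft1, squalene synthase, was at 130 and 135 CPM against 129 and 106 CPM, so sorafenib replicate 1 lay just under the carrier range. With TMM factors the groups of Fdft1 separated upward, while Sqle and Lss stayed below. Exons of Fdft1 overlap those of Ctsb on the other strand, and the strand setting of the counting is not given in the sources used here.

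Among the 9 genes from lanosterol to cholesterol, 6 lay above both carrier libraries (66.7%, against 17.5% of all tested genes on CPM and 27.2% with TMM factors). The count was also 6 with RLE and upper-quartile factors. The largest separation was that of Ebp (ENSMUSG00000031168, chrX:8185329-8193512) (log2 difference 0.95, SE 0.259, limma adjusted p = 0.24). Sc5d (ENSMUSG00000032018, chr9:42251595-42264256), the desaturase that makes the last ring double bond before Dhcr7 acts, was at 349 and 400 CPM with carrier and 522 and 752 CPM with sorafenib (log2 difference 0.74, SE 0.262, limma adjusted p = 0.252). Both were higher in each of the sorafenib libraries, with mean levels 1.97 and 1.70 times those of carrier tumors.

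Hsd17b7, a ketoreductase of the demethylation steps, was at 45.3 and 41.3 CPM against 46.7 and 67.1 CPM. Nsdhl, the decarboxylating partner of those steps, was at 132 and 133 CPM against 134 and 161 CPM, and Msmo1, the methyl oxidase, at 144 and 147 CPM against 148 and 169 CPM. In these 3 genes sorafenib replicate 1 lay just above the carrier range, and the separation came from sorafenib replicate 2. Cyp51, which removes the first methyl group of lanosterol, was at 251 and 264 CPM against 232 and 208 CPM, and its groups overlapped with TMM factors. Dhcr7, the last reductase, varied as much within groups as between them, at 253 and 168 CPM against 200 and 107 CPM.

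The enzymes that can reduce the same double bond, at carbon position 14 of the sterol, stood on opposite sides. Tm7sf2 (ENSMUSG00000024799, chr19:6062821-6068373), a reductase of the endoplasmic reticulum, was at 74.5 and 64.9 CPM with carrier and 83.1 and 162 CPM with sorafenib (log2 difference 0.73, SE 0.341). Lbr (ENSMUSG00000004880, chr1:181815335-181843046), the lamin B receptor of the inner nuclear membrane, was at 33.9 and 37.4 CPM against 24.6 and 16.8 CPM (log2 difference -0.78, SE 0.291). Per kb of exons, the ratio of Tm7sf2 to Lbr was 2.38 and 1.88 in the carrier libraries and 3.65 and 10.4 in sorafenib replicates 1 and 2. The sum of both was 24.0 and 22.6 against 24.0 and 40.2 CPM per kb. Such ratios within a library do not depend on library scaling, but 2 against 2 libraries cannot give an exact two-sided permutation p below 0.333, so none was tested. Exons of Tm7sf2 overlap those of Vps51 on the same strand, which was at 20.7 and 17.2 against 21.6 and 11.2 CPM.

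The same within-library view set the late enzymes against Lss. These pairs were chosen after their values were seen. Per kb, the ratio of Ebp to Lss was 4.37 and 4.05 in the carrier libraries and 7.94 and 21.4 in the sorafenib libraries, and that of Sc5d to Lss 4.58 and 5.80 against 8.47 and 22.5. Both sorafenib libraries were above both carrier libraries in each ratio, and sorafenib replicate 2 was far above replicate 1.

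**Figure D5:**
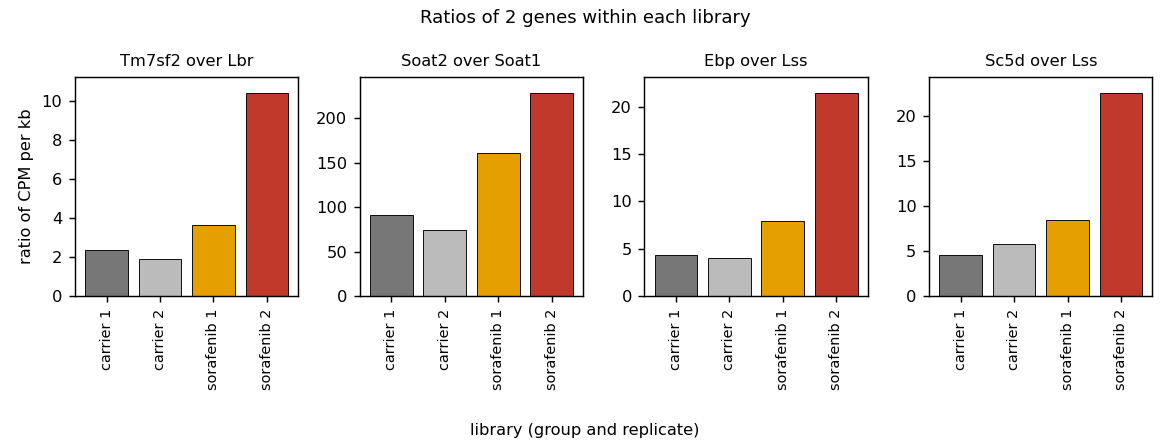
Bars give the ratio of CPM per kb of exons of 2 genes within each library (y axis, each panel with its own scale from 0; x axis, library). The 4 pairs were chosen after their values were seen, and 2 other pairs whose groups overlap (Nus1 over Dhdds, Npc1 over Npc2) are not drawn. Both sorafenib bars exceed both carrier bars in these panels, up to 10.4 for Tm7sf2 over Lbr and 228 for Soat2 over Soat1 in sorafenib replicate 2.

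In the isoprenoid branch, both subunits of the enzyme that makes the dolichol backbone lay below both carrier libraries under every scaling tried. Of all tested genes, 41.3% lay below both on CPM and 29.2% with TMM factors. Dhdds, the catalytic subunit, was at 38.3 and 42.8 CPM with carrier and 32.4 and 16.0 CPM with sorafenib (log2 difference -0.80, SE 0.369). Nus1, its partner, also called the Nogo-B receptor, was at 76.0 and 75.3 CPM against 56.6 and 47.8 CPM (log2 difference -0.53, SE 0.219). Per kb, the ratio of Nus1 to Dhdds was 1.54 and 1.37 against 1.35 and 2.32, so the groups overlapped. Ggps1, which makes geranylgeranyl diphosphate, was at 9.61 and 6.98 CPM against 7.38 and 8.58 CPM, within the carrier range.

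The 4 genes grouped here under lysosomal release of cholesterol divided. Lipa, the acid lipase that frees cholesterol from its esters, was at 106 CPM in both carrier libraries and at 114 and 153 CPM in the sorafenib libraries, above both. Npc2, the soluble carrier that takes cholesterol from the lumen, was at 110 and 94.1 CPM against 86.8 and 70.9 CPM (with overlap under RLE factors), and Stard3, a late-endosome tether, at 23.3 and 27.7 CPM against 19.7 and 13.9 CPM, both below. Npc1, the membrane protein to which Npc2 passes cholesterol, was at 77.4 and 119 CPM against 97.6 and 162 CPM, and the groups overlapped. The ratio of Npc1 to Npc2 per kb was 0.339 and 0.607 against 0.540 and 1.10, also with overlap. Stard4, which carries sterol through the cytosol, read 98.9 and 164 CPM with carrier, a range that held both sorafenib libraries at 122 and 159 CPM.

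Both acyltransferases that store cholesterol as esters lay below both carrier libraries, as did 41.3% of all tested genes. Soat1 (ENSMUSG00000026600, chr1:156424525-156474331), the form found in many cell types and prominent in macrophages, had a log2 difference of -1.27 (SE 0.363, limma adjusted p = 0.24), and its mean level was 3.24 times higher in carrier tumors. Its values rested on 31 and 29 reads with carrier and 8 and 7 with sorafenib. The summed level of the 12 macrophage markers was also lower in both sorafenib libraries, and its part in the value of Soat1 was not tested. Soat2 (ENSMUSG00000023045, chr15:102150526-102163469), the form of hepatocytes and intestine, was at 107 and 91.1 CPM against 71.8 and 68.6 CPM (log2 difference -0.49, SE 0.213), and its groups overlapped with RLE factors. Soat2 was the main form in every library: its ratio to Soat1 per kb was 90.8 and 73.7 in the carrier libraries and 161 and 228 in the sorafenib libraries.

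Other genes around the pathway were read from 4 lists, and limma called 0 genes in each of them, while DESeq2 called Acat3 (DESeq2 adjusted p = 0.024) and Stard5 (DESeq2 adjusted p = 0.0132) among the genes named here. Of 4 tested genes of synthesis not among the 29, 2 lay above both carrier libraries (50%, against 17.5% of all tested genes) and 1 below (25%, against 41.3%). Acat3, the copy next to Acat2, was at 36.6 and 44.5 CPM against 72.8 and 90.4 CPM, and Acat1, the mitochondrial thiolase, at 284 and 271 CPM against 326 and 453 CPM.

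Of 11 genes that control SREBP2 or sterol enzymes, 2 lay above both carrier libraries (18.2%, near the 17.5% of all tested genes) and 7 below (63.6%, against 41.3%, and 45.5% against 29.2% with TMM factors). Srebf2, the gene of SREBP2, was at 97.8 and 85.3 CPM with carrier and 68.1 and 35.6 CPM with sorafenib, and Mbtps2, a protease that releases it, at 17.9 and 20.4 CPM against 13.8 and 7.62 CPM. Insig1, which holds SREBP2 back and is itself an SREBP target, was at 147 and 164 CPM against 218 and 311 CPM. Srebf2 and Insig1 kept these sides under TMM, RLE and upper-quartile factors.

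Of 14 genes that use isoprenoids, 1 lay above both carrier libraries (7.14%, against 17.5% of all tested genes) and 7 below (50%, against 41.3%). Rce1, a protease that trims prenylated proteins, was at 17.2 and 20.6 CPM against 11.6 and 7.62 CPM, and Fntb, the farnesyltransferase subunit, at 11.6 and 6.79 CPM against 5.16 and 3.05 CPM. Pdss2, of ubiquinone side-chain synthesis, was at 8.43 and 9.81 CPM against 10.1 and 11.4 CPM, and Rabggta, a subunit of the enzyme that prenylates Rab proteins, overlapped at 56.3 and 37.9 CPM against 46.7 and 58.7 CPM. Of 18 further genes of sterol transport and ester turnover, 5 lay above (27.8%, against 17.5%) and 8 below (44.4%, near the 41.3% of all tested genes). With TMM factors 7 of them lay above (38.9%, against 27.2%) and 3 below (16.7%, against 29.2%). Stard5, a cytosolic sterol carrier, was at 48.2 and 60.9 CPM against 99.3 and 154 CPM, and Lcat, the plasma enzyme that esterifies cholesterol, at 205 and 195 CPM against 270 and 457 CPM. Cav1, the caveola protein, was at 6.74 and 9.62 CPM against 3.44 and 2.29 CPM, and Gramd1b, a sterol carrier at membrane contacts, at 13.0 and 20.2 CPM against 12.8 and 2.86 CPM. For Gramd1b, sorafenib replicate 1 lay just under the carrier range, and the groups overlapped with TMM, RLE and upper-quartile factors. Cav1 is also abundant in endothelium, whose markers were lower in sum, and their part in its value was not tested.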

How the data were processed

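Poly(A) RNA of 4 tumor samples was sequenced, per the labels' protocols. Libraries were made with a stranded TruSeq kit. STAR (2.6.1c), Subread (1.6.3), edgeR (3.22.5) and build GRCm38 appear in the submitters' processing notes. Not given in the sources used here were their roles, the strand setting and how multi-matching reads were counted. The authors deposited 1 column per library, and its values are CPM: each sums to 1000000 and holds whole multiples of 1 step. Dividing by that step gave whole reads, within 0.01, for 100% of values above 0 in each library. In sorafenib replicate 1, the shallowest library, 1 read equalled 0.246 CPM.

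The 29 members and all lists were chosen with earlier results of these data known. The main test was limma (3.58.1, under R 4.3.3) with a variance trend, on log2(CPM + 1) of the 13149 genes reaching 1 CPM in 2 libraries or more. The recovered reads went into edgeR (4.0.16) and DESeq2 (1.42.0), where DESeq2 gave 2040 genes no adjusted p. The count test called 0 genes with edgeR's quasi-likelihood test and 498 with DESeq2. Lists are described by counts and medians, with no test. All 29 genes are named, and of each list of other pathway genes the 2 with the smallest p in each direction, apart from some not reported here. Positions and exon lengths came from GENCODE M21 (GRCm38), which held 37693 of 39179 identifiers, and promoters from RefSeq (GRCm38.p6), taking for each gene the start nearest to that of its principal GENCODE transcript. Counts of replicates differed beyond sampling noise, with a chi-square of 9.09 per degree of freedom in the carrier pair and 40.9 in the other pair. The scripts were tested on simulated data.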

Additional observations from a re-analysis of the deposited data

How the results depend on the processing

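Of 434 values of single sterol genes under the alternatives, 394 kept their direction and their side of the threshold, 17 passed it newly (16 without sorafenib replicate 1, and Ebp with DESeq2) and 23 changed sign. Sign changes were those of Cyp51 (0.042 with DESeq2, 0.040 with RLE factors, 0.023 with TMM factors, 0.024 with edgeR), Fdft1 (0.091 with DESeq2 and RLE, 0.074 with TMM and edgeR, 0.015 with upper-quartile factors), Pmvk (0.077 with DESeq2, 0.082 with RLE, 0.066 with TMM, 0.060 with edgeR, 0.008 with upper-quartile factors), Ggps1 (0.24 with DESeq2, 0.20 with RLE, 0.19 with TMM, 0.22 with edgeR, 0.14 with upper-quartile factors, and, leaving out 1 library, -0.244 to 0.166, above zero without carrier replicate 1 and without sorafenib replicate 1) and Stard4 (leaving out 1 library, -0.228 to 0.492, below zero without carrier replicate 1 and without sorafenib replicate 2). The cause was not tested. The median of the 29 genes was 0.077 with DESeq2, 0.082 with RLE, 0.066 with TMM, 0.060 with edgeR and 0.008 with upper-quartile factors, that of synthesis genes was -0.18 on CPM, 0.091 with DESeq2 and RLE and 0.074 with TMM and edgeR, and that of trafficking genes -0.37 on CPM, -0.11 with DESeq2, -0.10 with RLE and -0.12 with TMM and edgeR. These scalings also moved the median of all tested genes, from -0.26 on CPM to -0.09 with upper-quartile factors, -0.04 with TMM and -0.02 with RLE. Leaving out 1 library gave medians of -0.32 to -0.06 for the 29, -0.31 to -0.01 for synthesis and -0.51 to -0.22 for trafficking genes. With RLE factors 8 genes lay below both carrier libraries in place of 14, a comparison of scalings added after the data were seen. limma called 0 to 16 of the 29 and 0 to 5149 of all genes when 1 library was left out, and DESeq2 called 1 and 498. With the replicate number as a block limma called 0 of the 29 and 0 genes in all; deviations of same-numbered libraries correlated at 0.15 over genes, and with 2 pairs that sharing is of a number only. The other pseudocounts, filters and variance settings called 0. Idi1 and Soat1 rest on 6 to 31 reads a library, which limits both.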
